A study of Drosophila melanogaster with 2 samples.

Results

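The genes Tlk, CG11050, CG32772 and ush held the strongest CG14711-eGFP peaks that lay inside a gene and away from every annotated start site in adult female flies. They were chosen by the measured signal of their peaks: in the optimal list of the irreproducible discovery rate (IDR) procedure, which here holds the 5654 peaks of highest signal of the pooled list, they are the 4 genes with the highest peak signal among peaks whose summit was more than 500 bp from any transcription start site and inside a gene span. In all, 1065 genes held 1711 such peaks. Chromatin immunoprecipitation with sequencing (ChIP-seq) was done with an anti-GFP antibody in intact adult females of Drosophila melanogaster, all from a transgenic line that stably expresses CG14711 with eGFP fused to its C-terminal end. The age of the flies is given as unknown, and the sources used here do not give what drives the transgene. The series holds 1 group of 2 samples, biological replicates 3 and 4 from separate biosamples, and chromatin was sonicated to 200 to 800 bp. With whole flies, the tissues that give a peak cannot be told apart.

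As background, CG14711 belongs to the ZAD family of zinc finger proteins, an insect family of DNA-binding proteins that carry an amino-terminal zinc-finger-associated domain. Tlk encodes the Tousled-like kinase, a serine/threonine kinase that phosphorylates the histone chaperone Asf1 and acts in chromatin assembly during DNA replication. The gene ush (u-shaped) encodes a zinc finger protein of the FOG family that binds GATA factors and modifies what they do at their targets, in blood cells and in the thorax among other places. A ChIP-seq peak marks where fragments carried by the tagged protein pile up, and its summit is the position where they pile up highest. A summit in an intron can lie at an enhancer, at a start site of another isoform or at neither, and the peak lists do not tell these apart.

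The 241 bp around each of the 4 summits are shown because all later counts of sequence words rest on them. They are given on the plus strand of dm6, which is also the coding strand of all 4 genes, and each summit is the central base. Capitals mark every match, on either strand, to CAACCCT, the word that earlier results of these data ranked best, and to AGTTTTA, a word picked after these sequences were seen because all 4 hold it. The Tlk window is chrX:3742096-3742336, the CG11050 window chr2L:6612604-6612844, the CG32772 window chrX:4910252-4910492 and the ush window chr2L:480937-481177, with bases from the RefSeq copy of the assembly.
Tlk: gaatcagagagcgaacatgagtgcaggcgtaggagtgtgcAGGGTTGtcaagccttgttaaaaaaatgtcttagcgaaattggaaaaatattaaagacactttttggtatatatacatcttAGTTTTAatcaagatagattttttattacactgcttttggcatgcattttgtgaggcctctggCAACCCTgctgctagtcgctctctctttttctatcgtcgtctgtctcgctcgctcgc
CG11050: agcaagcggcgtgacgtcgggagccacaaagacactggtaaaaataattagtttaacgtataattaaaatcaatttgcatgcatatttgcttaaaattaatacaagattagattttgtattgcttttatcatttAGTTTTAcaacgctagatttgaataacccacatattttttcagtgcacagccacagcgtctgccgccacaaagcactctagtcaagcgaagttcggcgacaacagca
CG32772: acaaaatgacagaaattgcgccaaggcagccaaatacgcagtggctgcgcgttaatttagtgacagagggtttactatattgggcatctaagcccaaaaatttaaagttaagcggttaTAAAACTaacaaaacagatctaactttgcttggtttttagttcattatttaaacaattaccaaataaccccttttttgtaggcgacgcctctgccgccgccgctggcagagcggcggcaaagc
ush: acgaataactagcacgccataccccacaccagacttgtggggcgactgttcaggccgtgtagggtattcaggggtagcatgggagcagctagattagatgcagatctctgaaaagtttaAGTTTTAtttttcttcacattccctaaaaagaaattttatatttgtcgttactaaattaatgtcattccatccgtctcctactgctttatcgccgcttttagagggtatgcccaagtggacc
The Tlk window holds CAACCCT once on each strand, on either side of the summit, and the other windows do not hold it. AGTTTTA stands near the centre of all 4 windows, on the plus strand in Tlk, CG11050 and ush and on the minus strand, as TAAAACT, in CG32772.

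Peak signal was highest in Tlk and lower in steps through the other 3 genes. The Tlk peak had a signal of 9216.8 and was the strongest of the whole IDR list (rank 1). The CG11050 peak had a signal of 4321.0 (rank 18), the CG32772 peak 3651.5 (rank 35) and the ush peak 3281.1 (rank 44). These values chose the genes, so they are a description only. Signal is the authors' own value for each peak, it is used here to rank peaks within a list, and the median over all IDR peaks was 256.6, so that the 4 signals were 35.9, 16.8, 14.2 and 12.8 times the median. The runner-up of the whole IDR list had a signal of 6809.2, and the Tlk peak was 1.35 times as strong.

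The gene order in the separate lists of the replicates was that of the IDR list, but their spread in rank was wide for 3 of the genes. Tlk ranked 1 in both replicates, with a signal of 3576.5 in replicate 3 and 5652.2 in replicate 4. For CG11050, replicate 3 gave 1417.5 at rank 38, and replicate 4 gave 2883.8 at rank 10. For CG32772, replicate 3 gave 1094.0 at rank 67, and replicate 4 gave 2546.8 at rank 20. For ush, replicate 3 gave 1025.4 at rank 77, and replicate 4 gave 2212.9 at rank 39. All genes but Tlk thus ranked better in replicate 4. The scale of the signal differs between the lists, so the higher values in replicate 4 do not compare occupancy. Set against the strongest peak of the same list, which was Tlk each time, CG11050 reached 39.6% in replicate 3 and 51.0% in replicate 4, CG32772 30.6% and 45.1%, and ush 28.7% and 39.2%.

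Summit positions repeated closely. For Tlk the replicate 3 summit fell on the IDR summit and the replicate 4 summit 3 bp to its right. For CG11050 the replicate 3 and replicate 4 summits lay 15 and 5 bp to the left, and for CG32772 5 and 11 bp to the right. For ush the replicate 3 summit lay 43 bp to the right, the widest offset of the 4 genes, and the replicate 4 summit fell on the IDR summit. In 4 of 4 genes both replicates therefore placed a summit within 50 bp of the IDR summit, against 72.9% of all IDR peaks and all of the 100 strongest. The 4 genes do not stand apart in this from other peaks of their strength.

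**Figure D1:**
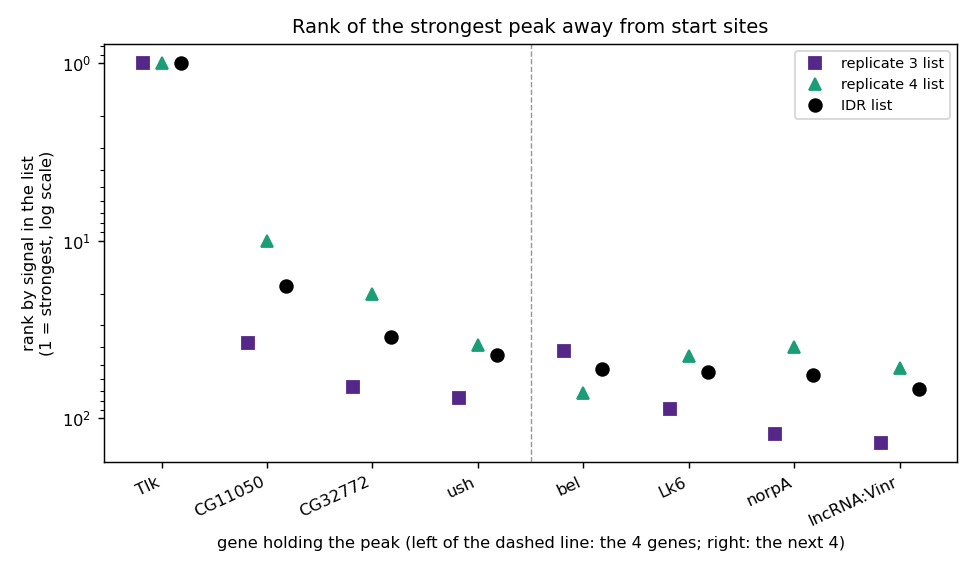
Rank by signal (log axis, 1 is the strongest) of the strongest peak away from start sites in the 4 genes, left of the dashed line, and in the next 4 genes of the order, right of it, in the lists of replicate 3 and replicate 4 and in the IDR list. Tlk stands at rank 1 in every list, while ush at rank 77 in replicate 3 lies below bel at rank 42.

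The genes just outside the choice were bel, Lk6, norpA and lncRNA:Vinr, and no gap in signal set them apart from ush. The ush peak had 3281.1, against 3078.3 (rank 53) for bel, which encodes the DEAD-box RNA helicase Belle. Lk6, a protein kinase gene, had 3051.8 (rank 55), norpA, the phospholipase C gene of phototransduction, 2994.5 (rank 57), and lncRNA:Vinr, a long noncoding RNA gene, 2843.4 (rank 69). In the replicate 3 list CG32772 and ush, at ranks 67 and 77, stood below bel, at rank 42. At the distance threshold, the strongest IDR peak inside a gene with its summit more than 250 and up to 500 bp from a start site was in CG42671, 472 bp away, with 2901.6 (rank 65), which is below ush. Outside genes, a peak on 2L with 4552.4 (rank 15), 1177 bp from a start site, was stronger than all 4 peaks but that of Tlk.

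**Figure D2:**
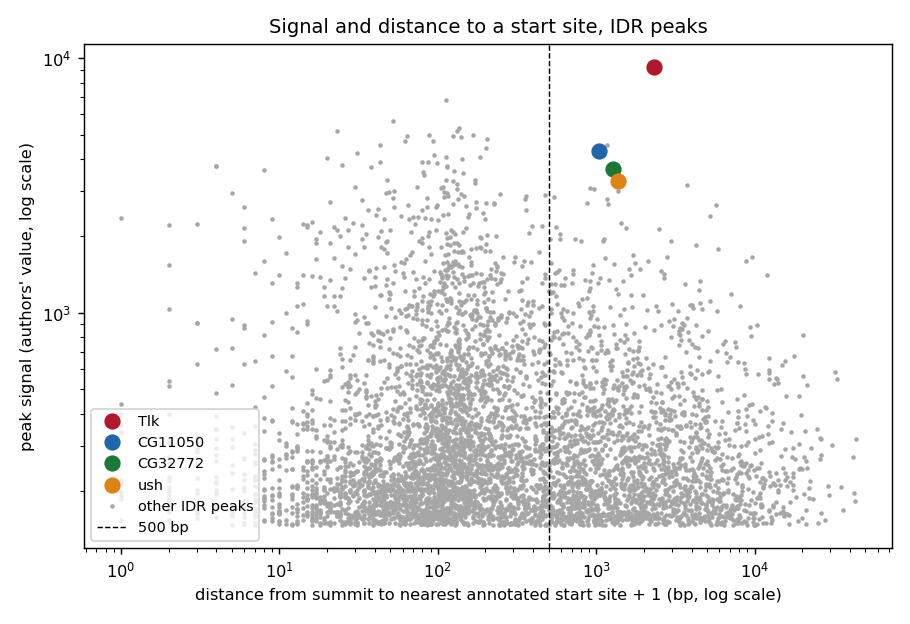
Peak signal in the IDR list against the distance from the summit to the nearest annotated start site plus 1 (both axes log), for the 4 genes (large coloured points) and the other IDR peaks (grey), with a dashed line at 500 bp. The Tlk peak, at 9216.8, is the highest point of the plot, and CG11050, CG32772 and ush stand at 4321.0, 3651.5 and 3281.1 between 1037 and 1369 bp from a start site.

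All 4 genes also had an IDR summit within 500 bp of at least 1 of their own start sites. That is 4 of 4, against 30.7% of the 13945 protein-coding genes. The kind of summit that chose the 4 genes, inside the span and away from every start site, was found in 7.24% of protein-coding genes, and both kinds together in 4.42%; nothing is read from these shares, since the choice used the first and it is part of the second. Gene length and the number of start sites differ between genes and were not matched. The own-promoter peaks had signals of 153.7 in Tlk, 191.4 in CG11050, 312.6 and 261.5 in CG32772 and 247.8 in ush. The intronic signals were 9216.8, 4321.0, 3651.5 and 3281.1, but they chose the genes, so nothing is read from this contrast. The median of all IDR peaks, 256.6, lies below both promoter values of CG32772 and above those of the other genes. Not all of these start sites belong to 1 gene: the Tlk summit is also 263 bp from the start of Rala, a Ras-like GTPase gene on the opposite strand, and the ush start at 490835 is also that of lncRNA:CR46258. Only in CG32772 were all start sites (2 of 2) within 500 bp of an IDR summit, against 2 of 3 in CG11050, 1 of 4 in ush and 1 of 8 in Tlk. In the longer pooled list of 30000 peaks, which reaches weaker peaks, the counts were 6 of 8 for Tlk, 3 of 3 for CG11050, 2 of 2 for CG32772 and 4 of 4 for ush. The share over all annotated start sites was not counted for either list. Whether these counts of start sites are usual is therefore not known.

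Tlk (FBgn0283657) lies at chrX:3720007-3789770 on the plus strand and spans 69764 bp, longer than 98.7% of protein-coding genes. Its annotation lists 14 isoforms from 8 start sites. The summit of the strongest peak, at 3742216 within a peak from 3741906 to 3742816, is 2319 bp downstream of the start of isoform RK and 22209 bp downstream of the most upstream start. It lies in an intron of 8 isoforms: intron 2 of RF, RH, RJ, RL, RO and RP, an intron of 60007 bp, intron 1 of RE (56783 bp) and intron 1 of RK (41450 bp). The other 6 isoforms, RB, RN, RG, RM, RI and RC, start 4947 to 37927 bp downstream of the summit. In all 8 isoforms that hold it the intron separates coding exons. The peak is 911 bp wide, wider than 99.1% of IDR peaks, and overlaps no exon. Such width is not particular to Tlk. The peaks of CG11050 and ush were wider than 97.1% and 91.0% of IDR peaks. Those of bel, Lk6, norpA and lncRNA:Vinr, the next genes by signal, were wider than 99.2%, 95.6%, 90.1% and 99.2%.

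The strong Tlk peak was 1 of many in the same intron. Of 14 IDR summits in the gene and 5 kb to either side, 13 fell in the gene span, at 1.86 per 10 kb. The rate was 0.422 per 10 kb over all 6 chromosome arms and 0.368 over the spans of protein-coding genes. As many summits lay in 0.0359% of protein-coding genes, a share not matched for gene length. The peak that chose Tlk is 1 of the 13. All 13 lay between 3742216 and 3781140, inside the 60007 bp intron, and 12 of them more than 500 bp from any start site. The runner-up, 54450 bp from the gene start, had a signal of 1480.0 (rank 261; 381 in replicate 3 and 218 in replicate 4), and the strongest was 6.23 times as high. By replicate this ratio was 8.45 in replicate 3 and 5.29 in replicate 4. The strongest peak carried 66.1% of the IDR signal summed over the locus. The strongest peak chose the gene, so such ratios and shares are a description only, here and in the other loci. They were not set against those of other strong peaks.

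The remaining Tlk summits were weaker and fell in 3 stretches of the intron. Downstream of the strongest peak, at 23612, 24258, 28381 and 30640 bp from the gene start, the signals were 530.2, 387.4, 284.2 and 159.9. In the middle, at 41841, 43511 and 48367 bp, they were 216.8, 156.1 and 182.8. Towards the 3′ end of the intron, beside the runner-up, the summits at 53546, 57423, 59118 and 61133 bp had 450.4, 243.7, 169.9 and 311.4. The values show no second peak near the strongest in height. Among them, the summit at 57423 bp lay 48 bp inside the hairpin of mir-4962, a microRNA gene nested in Tlk on the same strand (chrX:3777382-3777505), and 1371 bp from the nearest Tlk start site. It ranked 3009 in the IDR list, 2080 in replicate 3 and 5145 in replicate 4. The peak at the most upstream Tlk start, 109 bp upstream of it, had the lowest signal of the locus, 153.7 (rank 5333). A summit within 50 bp in both replicates was found for 13 of the 14; for the other, at 59118 bp, the replicate 3 summit lay 75 bp to the left.

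CG11050 (FBgn0031836) lies at chr2L:6611011-6617117 on the plus strand and spans 6107 bp. Its 3 isoforms, RA, RB and RC, start at 3 sites and all hold the summit, at 6612724, in intron 2. This intron is 140 bp long (6612641 to 6612780) and stands between coding exons. Of 1635 IDR peaks away from start sites with their summit in an intron, only 2 (0.122%) lay in an intron that short or shorter, and the median length of the shortest holding intron was 6896 bp, with quartiles of 2902.5 and 14631 bp. The other, in an intron of 111 bp where CG1677, lncRNA:CR44357 and unc-119 overlap, had a signal of 331.0 (rank 2061). The CG11050 peak, 684 bp from 6612341 to 6613024, is longer than its intron: 400 of its bases (58.5%) are exonic and 319 are coding. The peaks of Tlk, CG32772 and ush overlap no exon base. The name intronic thus fits the summit of the CG11050 peak and 284 of its bases, not the whole peak.

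In the CG11050 locus nothing else came near that peak. The only other IDR summit was 52 bp downstream of the RA start, with a signal of 191.4 (rank 4040; 3371 in replicate 3 and 4824 in replicate 4), so the intronic peak was 22.6 times as high and held 95.8% of the IDR signal of the locus. This is the widest such ratio of the 4 loci. It was 15.7 in replicate 3 and 26.2 in replicate 4. For the weak peak the replicate 4 summit lay 98 bp away, outside the 50 bp allowed. The pooled list held 10 summits here. The 8 outside the IDR list had lower signals, which was fixed in advance because the IDR list holds the pooled peaks of highest signal. The gene holds no nested gene.

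CG32772 (FBgn0052772) lies at chrX:4909102-4915161 on the plus strand and spans 6060 bp, with 4 isoforms from 2 start sites. The summit, at 4910372, is 1270 bp downstream of the first start, in an intron of 1054 bp (4909798 to 4910851) between coding exons, which is intron 1 of RC and intron 2 of RE. Isoforms RD and RF start 2009 bp downstream of the summit. The peak of 859 bp (4909884 to 4910742) fills most of the intron and is wider than 98.8% of IDR peaks. Both start sites had an IDR summit: 1 bp from the first with a signal of 312.6 (rank 2205; 1115 in replicate 3 and 3585 in replicate 4), and 384 bp upstream of the second with 261.5 (rank 2761; 2746 and 3310). The strong peak therefore sits between 2 promoter peaks of lower signal in the same gene, 1269 bp from the nearer.

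The neighbours of CG32772 carried 3 more IDR summits. Upstream, a summit 115 bp from a start site of CG6927 had a signal of 510.0 (rank 1250). Downstream, Hgsnat, the gene of a lysosomal acetyltransferase, had 238.4 (rank 3079) 18 bp from a start site, a summit that is also 265 bp from the start of CG4041, and 610.5 (rank 974) in an intron. That last value was the runner-up of the locus, and the CG32772 peak was 5.98 times as high (5.41 in replicate 3 and 6.04 in replicate 4). All 6 IDR summits of the locus had a summit within 50 bp in both replicates. At 4.95 IDR summits per 10 kb of gene span CG32772 was the densest of the 4 genes, though this rests on 3 summits.

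The ush gene (FBgn0003963) lies at chr2L:476220-540560 on the plus strand and spans 64341 bp, longer than 98.6% of protein-coding genes, with 5 isoforms from 4 start sites. The summit, at 481057, is in intron 1 of RD (49060 bp) and of RE (13185 bp), ahead of the start codon in both. The other isoforms start further downstream, RB by 9778 bp, RA by 42409 bp and RC by 42679 bp. The nearest start site of any gene is not one of ush: it is that of cbt (cabut), a zinc finger transcription factor gene nested in the ush intron on the opposite strand. Its start at 479688 is 1369 bp from the summit, and the summit lies upstream of cbt. So the peak is at the same time in a ush intron and in the upstream region of cbt, and which gene it concerns cannot be told apart from peak positions. The long noncoding RNA genes lncRNA:CR46258 and lncRNA:CR46259 are also nested in ush. The ush peak is 494 bp wide (480829 to 481322), the narrowest of the 4.

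IDR summits clustered around the strong ush peak. The runner-up of the locus, at 480053, had a signal of 1069.8 (rank 450; 349 in replicate 3 and 557 in replicate 4) and lay 365 bp upstream of the cbt start, so it counts as the promoter peak of cbt. The strongest peak was 3.07 times as high, the smallest ratio of the 4 loci, with 2.26 in replicate 3 and 3.56 in replicate 4, and held 52.4% of the IDR signal of the locus. A summit inside cbt, at 479000, had 148.6 (rank 5544), and its replicate summits lay 125 and 63 bp away. Further into the ush intron, summits at 481998 and 485875 had 239.9 (rank 3065) and 371.0 (rank 1793). The peak at the RB start, 19 bp from it, had 247.8 (rank 2947). The first start site of ush, used by the isoforms whose intron holds the strong peak, had no IDR summit within 500 bp. Its nearest pooled summit was 59 bp away with 38.69 (rank 22694). Upstream of ush, CG4297 had 547.2 (rank 1132) and 357.6 (rank 1883) at start sites.

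**Figure D3:**
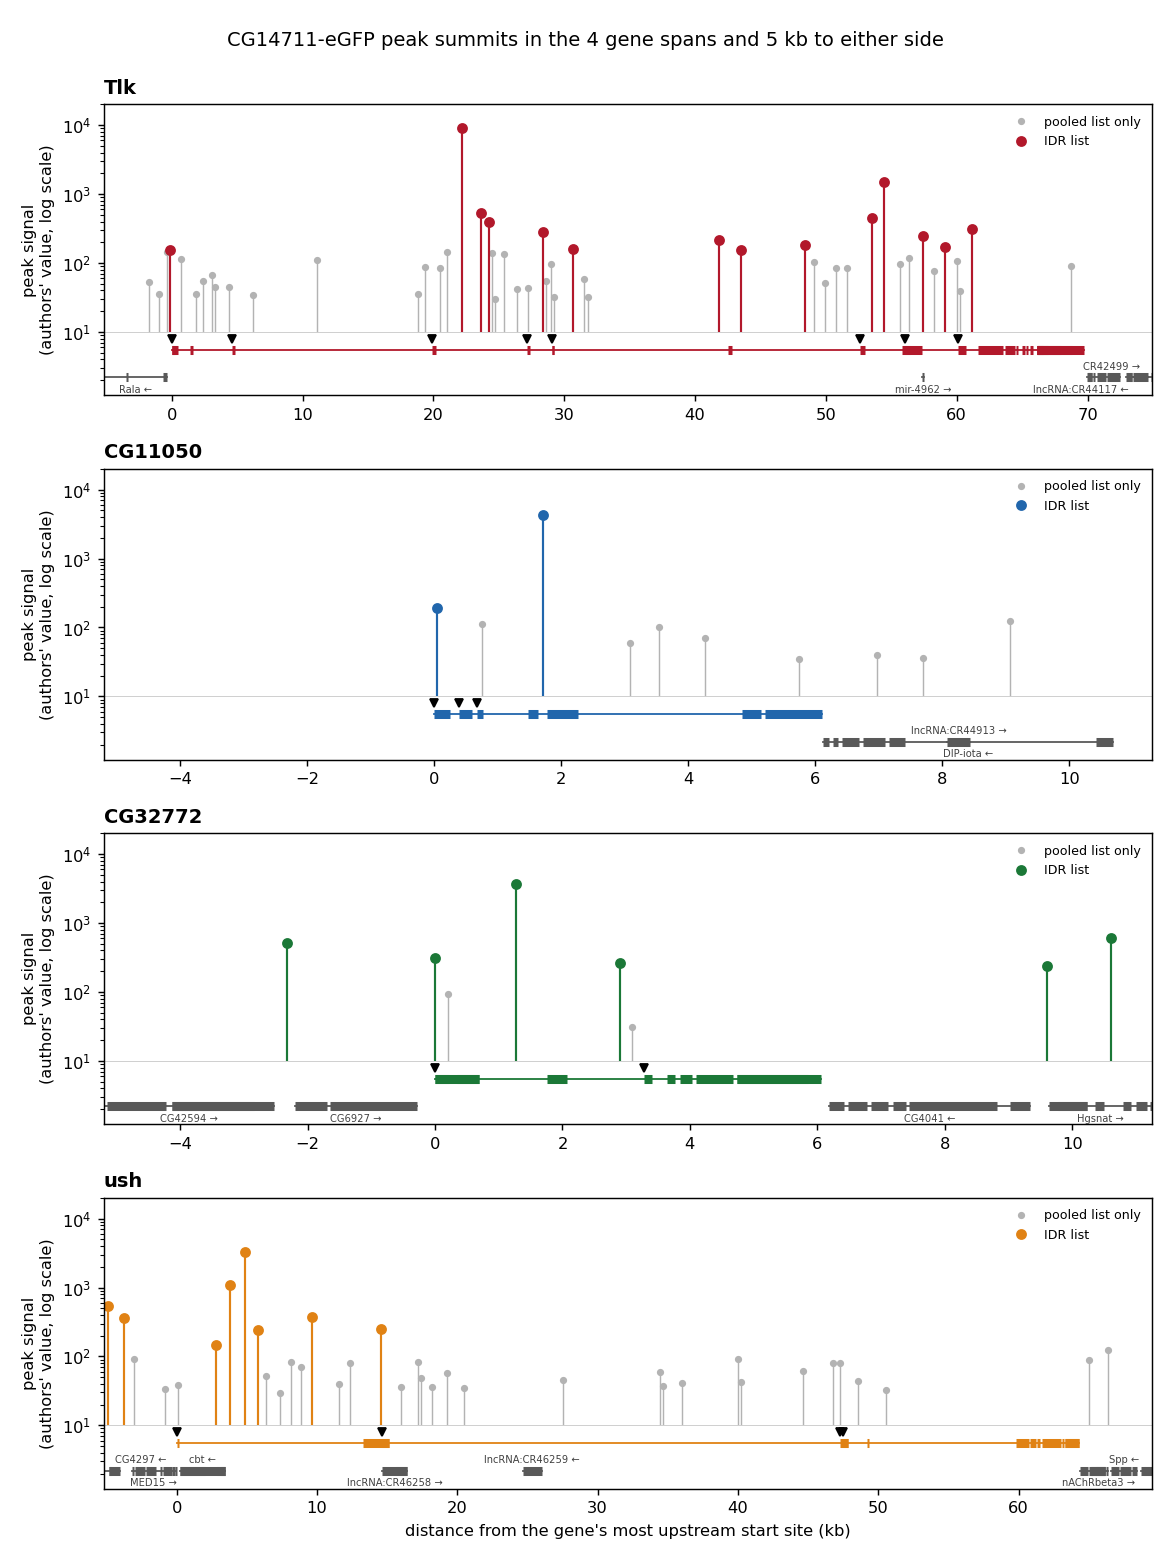
Peak summits in each gene span and 5 kb to either side, by distance from the most upstream start site of the gene in kb (horizontal) and peak signal (vertical, log scale), in the IDR list (coloured) and in the pooled list outside it (grey). Below each panel, the gene with its exons as thick blocks and start sites as black triangles, and its neighbours in grey with arrows for strand (crowded ones without a name). In all 4 panels 1 summit stands above the rest, from 3.07 times the runner-up in ush to 22.6 times in CG11050. These summits chose the genes, so nothing is read from their height over the others.

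The longer peak lists added weaker summits in all 4 loci. Over the same spans and flanks, the pooled list held 49 summits for Tlk, 10 for CG11050, 8 for CG32772 and 36 for ush. The replicate 3 list held 55, 10, 8 and 40, and the replicate 4 list 52, 12, 8 and 37. In Tlk the pooled signals had a median of 97.6, down to 29.87, and in ush a median of 66.62, down to 29.6. For CG11050 the pooled median was 85.35 and for CG32772 it was 287.1. Of the pooled summits, 6 of 8 in the CG32772 locus were IDR peaks, 14 of 49 in Tlk, 2 of 10 in CG11050 and 8 of 36 in ush. Over the whole pooled list it was 5654 of 30000. The peaks that chose the genes are among those counted. In the pooled list, 20 of the 49 Tlk summits and 10 of the 36 ush summits had a partner within 50 bp in both replicates. The share over all pooled peaks was not counted, so nothing is read from these 2 counts.

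**Figure D4:**
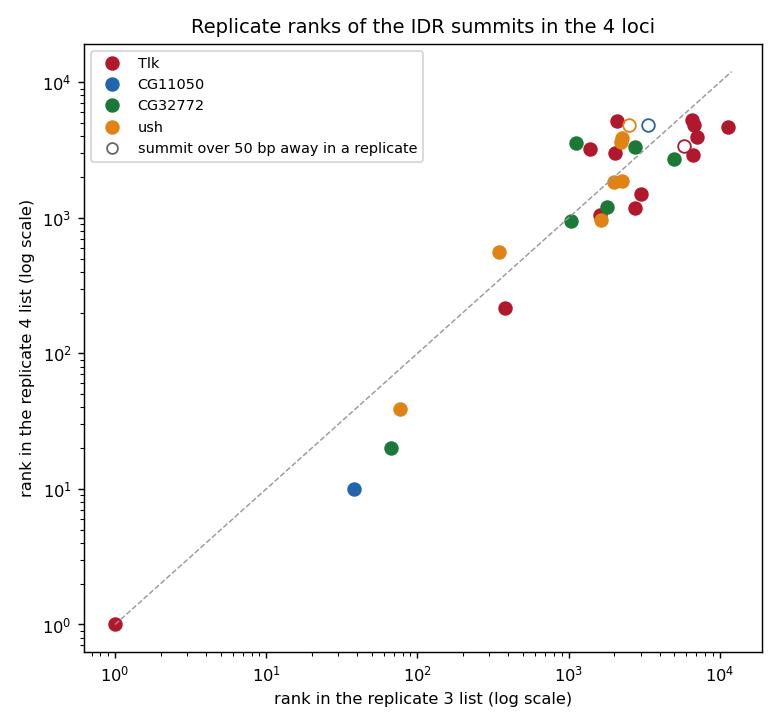
Rank of each IDR summit of the 4 loci in the replicate 3 list (horizontal) and in the replicate 4 list (vertical), both axes log, taking the nearest summit of each list; open circles mark summits with a partner more than 50 bp away in a replicate, and the dashed line is equal rank. The strongest peaks of the 4 genes lie at ranks 1 to 77 in both lists, the cbt promoter peak and the runner-up of Tlk at 218 to 557, and the others from rank 951 on.

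Base composition within 50 bp of the summit was low in GC in 3 genes and near the middle of all IDR peaks in ush. A wider window, 100 bp to either side, did not keep this. There Tlk had 37.8%, CG32772 40.8% and ush 41.3%, above the mean of 35.9% over all IDR peaks, and CG11050 had 32.8%. Within 50 bp of the summit, GC content was 24.8% in Tlk, 24.8% in CG11050, 26.7% in CG32772 and 33.7% in ush, against a median of 32.7% over all IDR peaks (quartiles 26.7% and 42.6%). Of all IDR peaks, 17.6% had a lower GC content than Tlk and CG11050, 24.7% than CG32772 and 50.2% than ush. On the side towards the 3′ end of each gene, the same window centred 300 bp from the summit had 48.5%, 60.4%, 49.5% and 58.4% GC, and on the other side 33.7%, 34.7%, 34.7% and 35.6%. This order held at that distance and not at all others: in 51 bp windows 170 bp from the summit, CG32772 had 27.5% on the 3′ side and 70.6% on the other. Over all IDR peaks, taken along the plus strand without regard to gene strand, the right side averaged 42.9% and the left side 43.0%. What part base composition has in the signal was not tested.

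**Figure D5:**
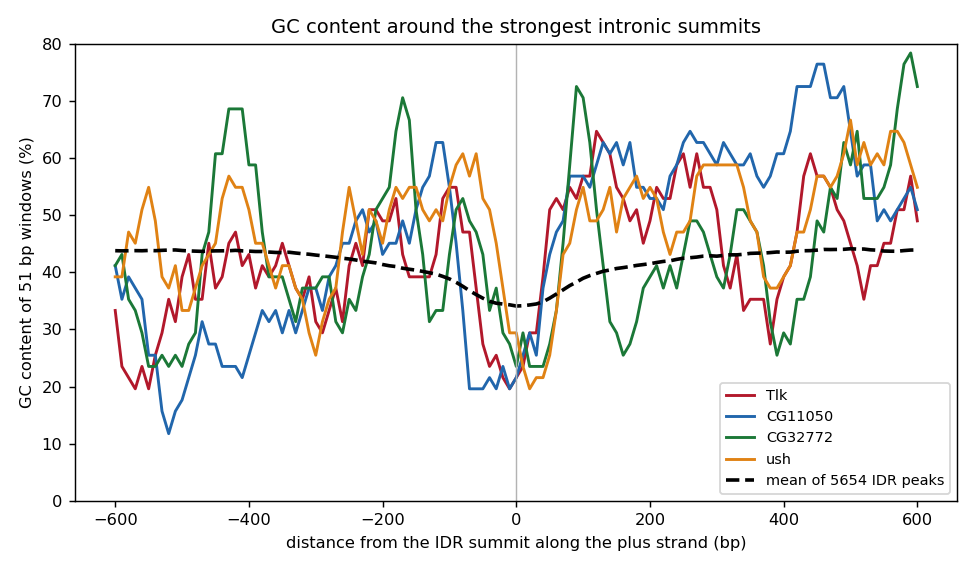
GC content of 51 bp windows from 600 bp left to 600 bp right of the IDR summit along the plus strand, for the 4 genes (solid lines) and as the mean of 5654 IDR peaks (dashed). At the summit the plotted GC is 21.6%, 21.6%, 23.5% and 29.4% in Tlk, CG11050, CG32772 and ush, against a mean of 34.1%. Each gene has windows as low further out. Examples are 19.6% in Tlk 570 bp left, 11.8% in CG11050 520 bp left and 23.5% in CG32772 550 bp left. In ush it is 25.5% 300 bp left. The single genes vary far more along the plot than the mean.

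None of the 4 peaks matched CAACCCT within 50 bp of its summit. The count was 0 of 4, against 4.28% of all IDR peaks, 4.5% of the 1711 peaks inside genes and away from start sites and 22.9% of the other 96 peaks among ranks 1 to 100, so most peaks of each set lacked it as well. The share was 0.531% in windows centred 300 bp to either side of IDR summits. In Tlk the word occurs a little further out, in the printed window: its first base on the minus strand is 80 bp left of the summit and on the plus strand 64 bp right of it, with 137 bp between both matches. Both extend to CAACCCTG. Within 150 bp, Tlk was the only 1 of the 4 with CAACCCT, against 44.8% of the other 96 strongest peaks and 6.67% of all IDR peaks. The peaks of CG11050, CG32772 and ush held it nowhere over their whole width. Apart from Tlk, 37 IDR peaks (0.655%) held at least 2 matches in the whole peak, with a median rank of 510. A peak without the word says only that these letters are not in that window.

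AGTTTTA lay within 20 bp of the summit in all 4 genes. On the plus strand its first base was 1 bp right of the summit in Tlk, 14 bp right in CG11050 and 1 bp left in ush, and in CG32772 the match TAAAACT began 2 bp left. It was the only word of 7 bases, counting either strand, that the 4 windows of 101 bp shared, and no word of 8 bases was shared, so its presence in all 4 is how it was picked. Apart from the 4 peaks it was within 20 bp of 94 of the 5650 other IDR summits (1.66%), the strongest of them at rank 218, and so of 0 of the other 96 among ranks 1 to 100. Within 50 bp, the distance at which the word was found, it was in 264 of the 5650 (4.67%) and in 4 of those 96 (4.17%), the best of them at rank 2, and in 1 of the next 4 genes, Lk6 (rank 55). In windows centred 300 bp away the share was 0.946% within 20 bp of the centre and 2.31% within 50 bp. Read backwards as ATTTTGA, a word of the same base composition, it was within 20 bp of 0 of the 4 summits and of 2.09% of all IDR summits. Nothing is read from the 0 of 4, because the forward word was picked for being in all 4 windows. Over all IDR summits the share of the forward word within 20 bp was 1.73%, below that of the reversed word. The 98 IDR peaks with AGTTTTA within 20 bp, the 4 among them, had a median rank of 2289 of 5654. Their median signal was 303.1, against 256.6 over all IDR peaks. The word was thus not limited to the strongest peaks. The match is a description, and no factor is assigned to it.

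Of the other words searched on both strands within 50 bp, GATAA and CAACNCT each matched CG11050 and no other of the 4 genes. GATAA, the core of GATA factor sites, occurred in CG11050, 5 bp right of the summit on the minus strand, against 25.3% of all IDR peaks. In ush it lay further out, in the printed window, 85 bp right of the summit on the minus strand. TATCGATA (the DNA replication-related element), CGATA (bound by BEAF-32, and contained in TATCGATA), GAGAG (GAGA factor), GGTCACAC (known as motif 1) and CAGGTAG (Zelda) each matched 0 of 4, against 2.69%, 19.2%, 9.53%, 1.84% and 0.407% of all IDR peaks. In windows centred 300 bp from IDR summits these shares were 19.5% for GATAA and 0.584%, 12.4%, 14.3%, 0.495% and 0.539% for the other 5 words. Within 150 bp, GATAA matched CG11050 and ush, against 56.1% of all IDR peaks. At that distance CGATA and GAGAG each matched Tlk and ush, against 45.3% and 32.9%. CAACCCT and AACCCTG are both contained in CAACCCTG. AACCCTG and CAACCCTG also matched 0 of 4, against 2.99% and 2.74% of all IDR peaks. The looser CAACNCT, added after the sequences were seen, matched CG11050 as CAACGCT (21 bp right of the summit). Its share was 12.3% of all IDR peaks and 33.3% of the other 96 peaks among ranks 1 to 100. In the windows 300 bp away it was 3.69%. The 26 other IDR summits of the 4 loci had CAACCCT within 50 bp in 0 cases and AGTTTTA in 1, at CG4297 (rank 1883).

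No second copy of the windows was found. The 301 bp around each summit matched the assembly once over its full length, with no other match at an E value of 1e-05. No annotated mobile element overlapped any of the 4 peaks, and the nearest lay 11259 bp from the summit in Tlk, 167612 bp in CG11050, 75036 bp in CG32772 and 29365 bp in ush. By position in the gene, 3 of the 4 summits were in the first intron of at least 1 isoform (Tlk, CG32772 and ush), against 74.4% of the 1635 intronic peaks away from start sites, a share close to that of the 4 genes.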

How the data were processed

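The 4 peak lists (1 for each replicate, 1 for both pooled and the optimal IDR list) were deposited in narrowPeak format on dm6, per the labels; the replicate lists were called against a control, per the deposited text records, and the control was not analysed here. Aligner, peak caller and IDR threshold: not given in the sources used here. Each peak's deposited signal is the authors' value, and the deposited −log10 q stops at a maximum (4.15 for all IDR peaks), so peaks were ranked by signal. The IDR list holds the 5654 pooled peaks of highest signal. Sequencing depth is unknown, as these lists carry no read counts.

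Start sites and spans came from Ensembl release 115 (BDGP6.54, coordinates as dm6; transposable elements left out; 18164 genes) and sequence from RefSeq. Summits, introns and words were computed with Python 3.11.15, pandas 2.3.3 and NumPy 2.4.6, and copies searched with BLAST 2.17.0; the scripts were tested on simulated data. No statistical test was run: the members were chosen on the signal, and there is 1 group. Members, word lists and gene lists were chosen with earlier results of these data known. Named genes are the 4 members, genes nested in them or overlapping their peaks, genes with a start site within 500 bp of an IDR summit of a locus, and the next 4 genes by signal; genes named at thresholds, for the short intron or under alternatives were chosen after their values were seen. Alternatives varied the flank, peak list, distances, windows and replicate.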

Additional observations from a re-analysis of the deposited data

How the results depend on the processing

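Of 48 alternative values, 13 moved and 35 did not, where moved means by over 1.5 times for a count, by over the SD of the 2 replicates' ranks for a rank, and out of the 95% binomial interval for GC content. With the IDR peaks of highest signal only (the stronger 50%), the summits per locus were 7 for Tlk, 1 for CG11050 and 5 for ush, against 14, 2 and 8. With a 10 kb flank CG11050 had 4 summits, and with no flank CG32772 had 3. Each replicate was also left out in turn, counting only the 5654 strongest peaks of the remaining replicate list. This gave 12 to 16 summits for Tlk, 3 for CG11050, 6 for CG32772 and 8 to 9 for ush. The same 4 genes came out with a distance over 250 or 1000 bp and with protein-coding genes only; over 2000 bp only 1 remained (Tlk, followed by CG32486, Eip75B and CG12769). Without replicate 3 all 4 remained, and without replicate 4 it was 2 (Tlk and CG11050, then bel and Eip75B). CG32772 and ush were thus not among the first 4 genes of the replicate 3 list alone. In that list CG11050 ranked 38, CG32772 67 and ush 77, against 18, 35 and 44 in the IDR list. CAACCCT was in 1 of 4 peaks (Tlk) within 100 bp and over the whole peak. GC content within 100 bp was 37.8% in Tlk and 40.8% in CG32772, against a mean of 35.9% over all IDR peaks. The causes of these shifts were not tested. No paired analysis was possible because there is 1 group. With 2 replicates and no read counts, no error can be put on a single signal.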
